A study of Arabidopsis thaliana with 4 samples.

Results

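The regions described are 570 isolated high probes of a tiling array, that is, probes that stood 1 log unit or more over the array median while the probe before and the probe after them, in the order of their IDs, both stayed under 1. They come from a ChIP-chip profile (chromatin immunoprecipitation read on an array) of histone H3 trimethylated at lysine 4 (H3K4me3) in Arabidopsis thaliana. The seedlings were of the col-0 ecotype, 10 days old per the labels and grown in liquid medium under long days without treatment, and all belonged to this 1 group. DNA precipitated with the H3K4me3 antibody (IP) was labelled together with the input DNA of the same ChIP, and each of 2 ChIP replicates, I and II, was hybridised to a dye-swapped pair of arrays. No label tells whether the replicates came from different cultures, and their spread may therefore be technical. As the seedlings were whole, a level averages over all of their cells.

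The members were chosen by the mean of both replicates, each centred on its own median over all 21691 probes with a value. Probes of sets TA, TB and TC entered, without plates TA21 to TA51 and TC17 to TC30, where high probes are scarce. This left 17357 probes on 182 plates, of which 4439 (25.6%) reached a mean of 1, against 4714 of all 21691 (21.7%). Among the 4439, 570 had both neighbours under 1, 2282 lay in 973 runs of 2 or 3 consecutive high probes and 1586 lay in 318 runs of 4 or more. The remaining high probe, TA20H12, stood alone beside left-out plates, had no following probe to judge it by and was not counted as a member. The values that chose the members are given below as a description without a test, and no measure in the table is independent of that choice except a replicate read after choosing in the other.

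H3K4me3 is placed by SET-domain methyltransferases, is bound by proteins with PHD fingers, and in plants marks the nucleosomes at the 5′ ends of transcribed genes, while silent heterochromatin carries little of it. In ChIP-chip a marked stretch that is longer than a probe appears as a run of high neighbours, and a shorter one can appear as a single high probe. The sources used here do not state whether the deposited ratios are IP over input or the reverse, nor their log base. The label of these regions as H3K4me3 peaks could therefore not be checked, and they are called high, in log units. The table does not pair IDs with genes, sequences or places in the genome.

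The highest isolated probe was TB40E11, at 5.70 log units in I and 7.04 in II. It was also the highest of all kept probes by the mean, 6.37 ± 0.95 (SD, n = 2). Its neighbours were at -0.26 and -0.37 in I and at 0.15 and -0.24 in II, so the probe stood 6.42 log units over the higher of them in the mean. The 6 probes after it stayed under 1 in both replicates, while 4 to 6 probes before it lay a short run with means of 1.25 to 1.87.

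No other member reached a mean of 4. The next in order were TA68B06, with 3.10 in I and 4.36 in II, TB62A01, with 1.60 and 5.65, and TA93F12, with 3.82 and 3.42. For TB62A01 the replicates were 4.05 log units apart, which makes its mean of 3.63 ± 2.86 (SD, n = 2) a poor guide to its level. The other 6 of the 10 highest, TB79A12, TC12F12, TB75B02, TB45A11, TB79B09 and TA80E09, had means of 3.15 to 3.35 and differed by 0.20 to 0.57 between the replicates, with II the higher in each. In several of them isolation rested on a neighbour close to the limit. The higher neighbour was at 0.99 for TB45A11 and TB75B02 and at 0.98 for TB79A12, and in replicate II alone the probe after TB79A12 reached 1.28.

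The step from a member to its higher neighbour was the most direct measure of how alone it stood. A step of 3 or more was found for 6 members. Besides TB40E11, TB62A01 and TA68B06, they were TB40D11, TA55B12 and TA53A01, the last of them named after its values were seen. TB40D11 had 2.66 in I and 3.04 in II between neighbours with means of -0.64 and -0.51. TA55B12 had 2.33 and 3.10 between neighbours at -0.43 and -1.11, and TA53A01 had 1.86 and 2.26 between neighbours at -0.98 and -0.96. These 3 rose from neighbours below the median of the array in the mean, and their replicates differed by 0.37 to 0.77 log units. TB40D11 and TB40E11 lie in the same column of adjacent rows of plate TB40, 12 wells apart in ID order. Members as a whole did not have high wells above or below them more often than kept probes in general: 252 of the 983 wells above or below a member reached 1 (25.6%), as did 25.6% of all kept probes, and their median was 0.12 against 0.13.

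**Figure D1:**
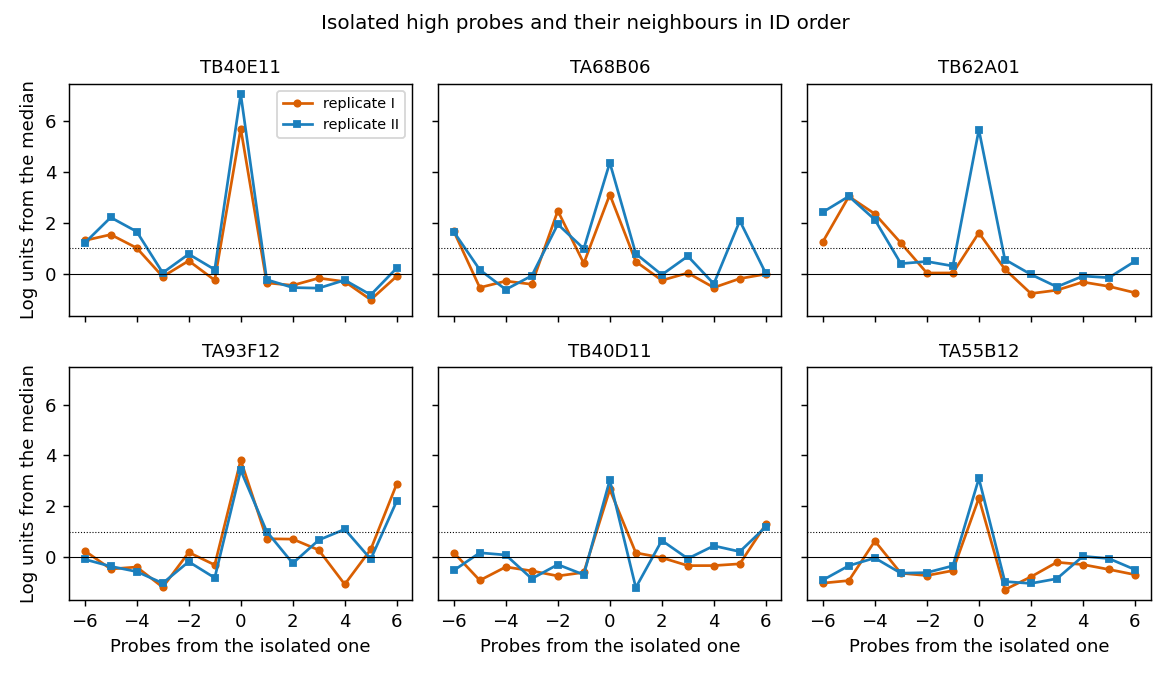
Centred log ratios (vertical axis, log units from the replicate median) of 6 isolated high probes and of the 6 probes before and after each in ID order (horizontal axis), in replicate I (orange circles) and replicate II (blue squares). The dotted line is the limit of 1. TB40E11 reached 5.70 and 7.04, TB62A01 reached 1.60 and 5.65, and TB40D11 and TA55B12 rose from neighbours with means below 0.

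In height, the members spread from just over the limit to 6.37. Their median was 1.67 log units, with quartiles at 1.30 and 2.12. A mean of 1.5 or more was found for 346 members (60.7%), 2 or more for 176 (30.9%) and 3 or more for 16 (2.81%). In contrast, 107 members (18.8%) lay between 1 and 1.2. The probes inside runs were higher in these data, with a median of 1.94 in runs of 2 or 3 and 2.00 in runs of 4 or more. A mean of 3 or more was found for 10.9% of the probes in runs of 2 or 3 and for 13.2% of those in longer runs. When each run was represented by its highest probe, the medians were 1.67 for members, 2.48 for runs of 2 or 3 and 2.91 for runs of 4 or more. The maximum of several probes is higher than a single one by construction, and height and run length were cut from the same values, so this order is not tested.

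**Figure D2:**
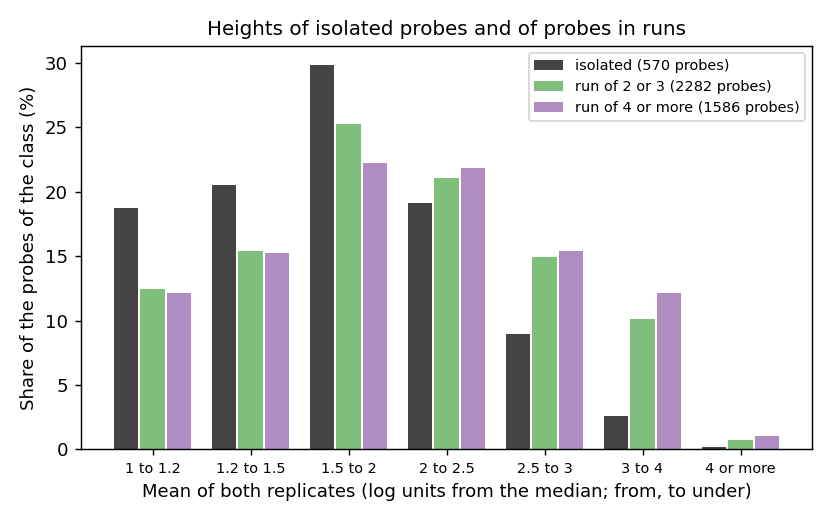
Share of the probes of each class (vertical axis, percent) by the mean of both replicates (horizontal axis, log units from the median), for 570 isolated probes (dark), 2282 probes in runs of 2 or 3 (green) and 1586 in runs of 4 or more (purple). The bin from 1.5 to 2 holds 29.8% of isolated probes, and the bin from 3 to 4 holds 2.63% of them against 10.1% and 12.2% of the probes in shorter and longer runs.

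Just inside and just outside the limit the 2 replicates of a probe fell on either side of 1. A mean this close to 1 nearly always requires that. The 5 lowest members, TC12A12, TA75G11, TA66H10, TA74E08 and TB54B08, had means of 1.002 to 1.004, and each was under 1 in 1 of the replicates. TC12A12, for instance, had 0.18 in I and 1.83 in II. The 5 probes just under the limit with both neighbours under 1 were TB93E07, TB17A05, TA05A06, TA01F12 and TB98A09, with means of 0.992 to 0.998, and each of them reached 1 in 1 of the replicates. Over all members the SD of the replicate values had a median of 0.26 log units, far more than the gap between these 10 means.

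Neighbours of the members were themselves above the array median in most cases. The probe before had a median of 0.40 log units (quartiles 0.09 and 0.71) and the probe after had 0.36 (0.04 and 0.70). Kept probes under 1 had a median of -0.10, with quartiles at -0.47 and 0.26. The shoulder was no higher on one side: the probe after exceeded the probe before at 277 of 570 members (48.6%). At a distance of 2 probes the median had fallen to 0.07 before and 0.04 after, under the 0.13 of all kept probes. At a distance of 6 the median was 0.21 and 0.26, above the 0.13. Replicates I and II gave the same shape, with medians of 0.43 and 0.31 for the probe before and 0.40 and 0.33 for the probe after.

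**Figure D3:**
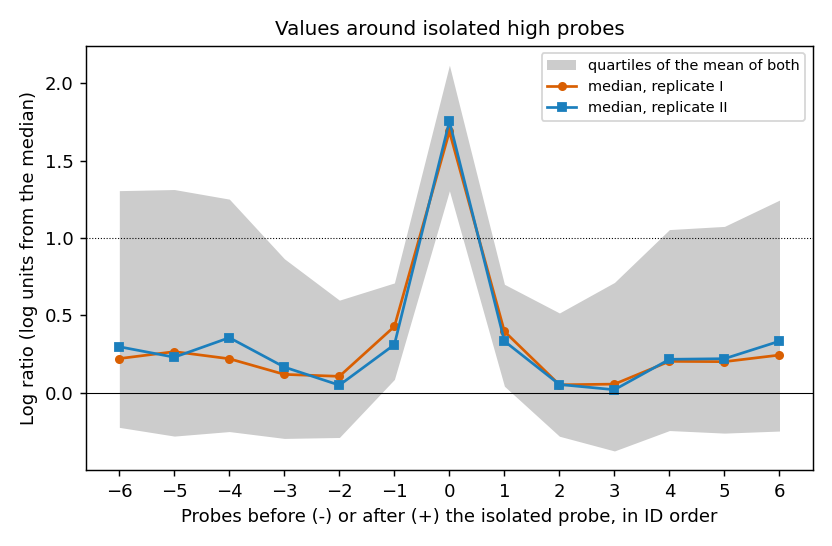
Median log ratio of replicate I (orange circles) and replicate II (blue squares), with the quartiles of the mean of both (grey), at the isolated probe and the 6 probes before and after it in ID order (horizontal axis, probes; vertical axis, log units from the median). The medians of the mean fall from 1.67 to 0.40 and 0.36 at a distance of 1 and to 0.07 and 0.04 at a distance of 2.

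By the higher of the 2 neighbours the members fell into different kinds. Its median was 0.67, and the median step down to it was 1.11 (quartiles 0.68 and 1.57). At 188 members (33.0%) the higher neighbour was at 0.8 or more, so a slightly lower limit would have turned the member into part of a run. At another 188 members (33.0%) both neighbours were under 0.5, and at 25 of these both were under 0. Both neighbours exceeded 0.5 at 84 members (14.7%), among them TA68B06 with a mean of 3.73. The step was under 0.5 at 83 members (14.6%). The difference between the replicates had an SD of 0.56 over kept probes, but that is a spread within single probes and not of a step between means. In single replicates a neighbour reached 1 at 109 members in I (19.1%) and at 79 in II (13.9%), and 387 members (67.9%) had both neighbours under 1 in both replicates.

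The flanks of runs were computed in the same way, counted outward from the last high probe on each side. The first probe outside had a median of 0.38 for members, 0.26 for runs of 2 or 3 and 0.30 for runs of 4 or more, and it is held under 1 in all 3 classes by the rule. The second probe outside had medians of 0.05, 0.02 and 0.08, and it reached 1 in 14.7%, 14.1% and 19.5% of cases. Differences between the classes were not tested.

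At 2 and 3 probes from members high probes were less frequent than over all kept probes, of which 25.6% reached 1. At 2 probes before and after a member 16.0% and 13.5% reached 1, and at 3 probes 22.1% and 18.8% did. Further out the shares were above 25.6%, with 29.6% and 26.1% at 4 probes and 30.2% and 29.1% at 6. The dip at 2 probes was not particular to members: outside runs of 2 or 3 and of 4 or more, 14.1% and 19.5% reached 1 there. These differences were not tested. The nearest other high probe was a median of 4 probes away (quartiles 2 and 6). At 158 members (27.7%) it was exactly 2 away, so that a single probe under 1 parted them. That parting probe was under 0.5 at 72 of the 158 (45.6%), and at 10 members high probes lay 2 away on both sides. At the other end, 100 members (17.5%) had no other high probe within 6, and 8 had none within 20. The most distant was TA99F01, named after its values were seen, which had 2.13 in both replicates and no other high probe within 36 in its set. The nearest high probe belonged to a run of 2 or 3 for 264 members, to a run of 4 or more for 102 and was itself isolated for 204.

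Plate TA68 stood out by the number of its members and was named after its values were seen. Of its 13 high probes 11 were isolated, against a median of 3 members per plate and a range of 0 to 11. In both replicates 1 was reached by 9 of the 11. These included TA68F11 with 1.98 in I and 2.93 in II, TA68A02 with 2.09 and 2.63, TA68F08 with 2.54 and 2.27 and TA68H11 with 2.03 and 2.02. TA68D08 and TA68F03 were under 1 in II, at 0.96 and 0.91. The plate had 93 wells with a value out of 96 and a median of 0.25, against 0.13 for all kept probes. There were 9 plates without any member, among them TA97, which held no high probe, and TB93, which held 39.

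Set TA held 212 members, TB held 304 and TC held 54, which is 3.26%, 3.17% and 4.21% of their kept probes. Taken as a share of high probes the members made up 16.5% in TA, 11.1% in TB and 12.6% in TC. TA had fewer high probes in all, 19.7% of its kept probes against 28.5% in TB and 33.5% in TC. Members also spread unevenly over the wells. In the first of the 12 plate columns there were 70 members, 17.9% of the high probes there, against 40 to 55 members and 10.8 to 14.9% in the other columns. Of these 70, 54 reached 1 in both replicates (77.1%), about the share among all members. Wells of odd row and odd column held 168 members, against 127 to 138 in each of the other 3 classes. With the rule run on replicate I alone the class held 132 isolated probes, against 129 to 135 in the others. On replicate II alone it held 273, against 148 to 197. In that class the median of kept probes was 0.29 in replicate II and 0.15 in I, and 31 of its members reached 1 in II only, against 15 or 16 in each other class. The part of well position in these counts was not tested.

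The replicates were compared member by member. Both reached 1 at 436 of the 570 members (76.5%; exact Clopper-Pearson 95% interval 72.8 to 79.9%, which treats probes as independent and is too narrow where neighbours are alike). Over all kept probes 25.9% reached 1 in I, 26.8% in II and 22.1% in both, and nothing is read from this contrast, since the mean of the replicates chose the members. Only I reached 1 at 56 members (9.82%) and only II at 78 (13.7%). In runs of 2 or 3, 87.6% of the probes reached 1 in both replicates, and in runs of 4 or more 88.1% did.

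Agreement followed height, as a mean near the limit requires. Both replicates reached 1 at 27 of the 107 members with a mean between 1 and 1.2 (25.2%), at 73 of 117 between 1.2 and 1.5 (62.4%), at 161 of 170 between 1.5 and 2 (94.7%) and at 175 of the 176 at 2 or more. The exception was TC06A05, with 0.90 in I and 3.95 in II. Across members, which are not independent replicates, the Pearson correlation of I and II was 0.47 and the Spearman correlation 0.49, and Pearson was 0.43 without TB40E11. Over all kept probes they were 0.88 and 0.83. The members were cut at a mean of 1 and cover a narrower range, which can lower a correlation. The SD of II minus I was 0.72 among members and 0.56 over all kept probes. The part of either in the lower correlation was not tested.

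**Figure D4:**
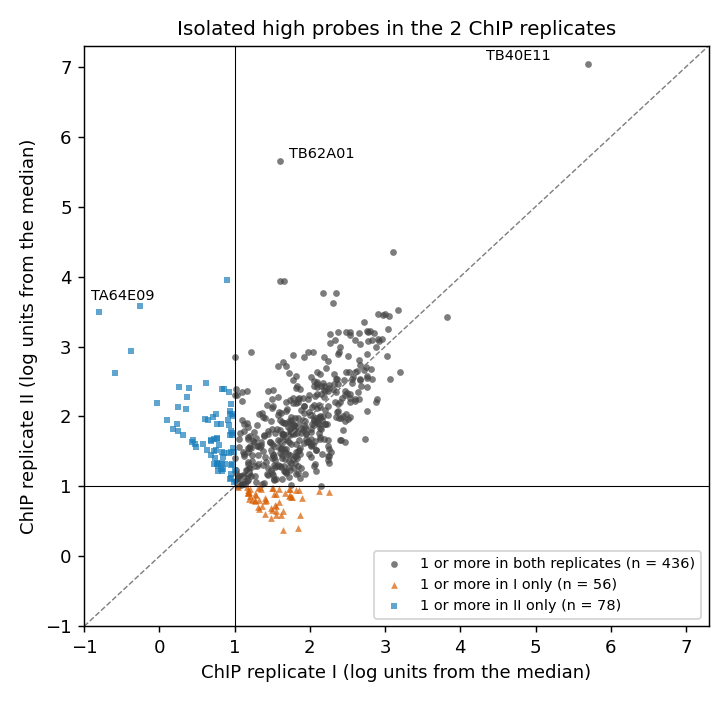
Centred log ratio of each isolated high probe in replicate I (horizontal axis) and replicate II (vertical axis), both in log units from the median, with equal values on the dashed line and the limit of 1 as solid lines. Grey circles are the 436 members at 1 or more in both replicates, orange triangles the 56 in I only and blue squares the 78 in II only, and the points far from the dashed line lie on the side of II.

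Large differences ran 1 way. Replicate II exceeded I by 1 log unit or more at 57 members (10.0%), and I exceeded II by as much at 9 (1.58%). Over all kept probes these shares were 4.66% and 1.79%. The mean chose the members, so a probe can pass through 1 very high replicate, and nothing is read from this contrast. A difference of 2 or more was found at 11 members (1.93%), with II the higher at all 11. That direction is not particular to members. Over all kept probes the lowest II minus I was -1.92, so no kept probe had I higher by 2 or more. Over all kept probes 89 of 17357 (0.513%) had II higher by 2 or more, and in runs of 2 or more 42 of 3868 (1.09%) did. Several of the 11 were peaks in II alone. TA64E09 had -0.80 in I and 3.49 in II, TA10C03 had -0.26 and 3.59, TA77B12 had -0.38 and 2.94, and TA87D07 had -0.59 and 2.62. With TA01A08, at -0.03 and 2.19, these were the 5 members that lay under the median in I, and 0 members lay under it in II. For each of the first 4, neighbours in I had values of 0.27 or less, and the probe itself lay below 0 there. Only 3 of the 11, TB62A01, TC00B09 and TB90G01, reached 1 in I, at 1.60, 1.60 and 1.65. Of the 11, 5 lay in wells of odd row and odd column (45.5%, exact Clopper-Pearson interval 16.7 to 76.6%). That class held 4338 of the 17357 kept probes and 168 of the 570 members. The interval is too wide to tell the 11 from either, and the part of well position was not tested.

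On the other side differences were smaller. The 5 members with I furthest over II were TA73A03, TB98C08, TA69C05, TB10F11 and TC02A08, which had I over II by 1.19 to 1.44 log units. TB98C08 had 2.25 in I and 0.92 in II, and TC02A08 had 2.12 and 0.93. Each of these 5 stayed between 0.38 and 0.93 in II, above the median.

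A replicate that was not used for the choice gave a separate reading. When the same rule was run on replicate I alone it found 525 isolated probes, and 408 of them reached 1 in II (77.7%, 95% interval 73.9 to 81.2%). In II, 294 (56.0%) were isolated as well, 114 (21.7%) were high with a neighbour that was also high, and 117 (22.3%) were under 1. Their median in II was 1.68, against 1.65 in I where they were chosen, and 463 (88.2%) stood over both of their neighbours in II.

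The reverse choice gave more probes, of which a smaller share returned. The rule on replicate II alone found 772 isolated probes, of which 496 reached 1 in I (64.2%, 60.8 to 67.6%), 294 were isolated there too (38.1%) and 100 lay under the median of I (13.0%), against 6 of 525 (1.14%) the other way. Their median in I was 1.504, with a 10th percentile of -0.12. Of the 772, 273 lay in wells of odd row and odd column, against 148 to 197 in each other class. Of the 525 chosen in I, 132 did, against 129 to 135. The part of well position in the smaller share was not tested. The 294 probes isolated in each replicate by itself are all among the members and make up 51.6% of them. Their median height was 1.82, their median higher neighbour 0.55 and their median step 1.37. Another 92 members were isolated in I but not in II, 144 in II but not in I, and 40 (7.02%) in neither, where only the mean gave a lone peak.

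Runs and isolated probes were then set side by side at like heights. Among probes at 1 to under 1.5 in I, 52.5% of isolated ones reached 1 in II (45.4 to 59.5%), against 57.6% in runs of 2 or 3 (53.8 to 61.4%) and 59.1% in longer runs (54.3 to 63.7%), with overlapping intervals. With the choice made in II, 40.9% of isolated probes at 1 to under 1.5 reached 1 in I (35.6 to 46.3%), against 65.4% in runs of 2 or 3 (61.5 to 69.1%) and 63.2% in longer runs (58.4 to 67.8%). At 1.5 to under 2 in II the shares were 74.8% (68.3 to 80.5%), 88.1% (85.1 to 90.7%) and 85.8% (82.0 to 89.1%). The intervals of isolated probes and of runs did not overlap in these bins of II. However, these intervals cover counting error over probes and not the spread between ChIPs. The bins were not split by well position, and the difference was not tested. At 2 to under 3 in I, 136 of 138 isolated probes reached 1 in II (98.6%), against 100% in runs of 2 or 3 and 99.7% in longer runs. At 2 to under 3 in II, 171 of 189 isolated probes reached 1 in I (90.5%, 85.4 to 94.3%). The shares in runs were 97.9% (96.5 to 98.8%) for 2 or 3 and 95.8% (93.7 to 97.3%) for longer ones. The interval of isolated probes overlapped only that of the longer runs. At 3 or more in II, 30 of 32 isolated probes reached 1 in I.

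**Figure D5:**
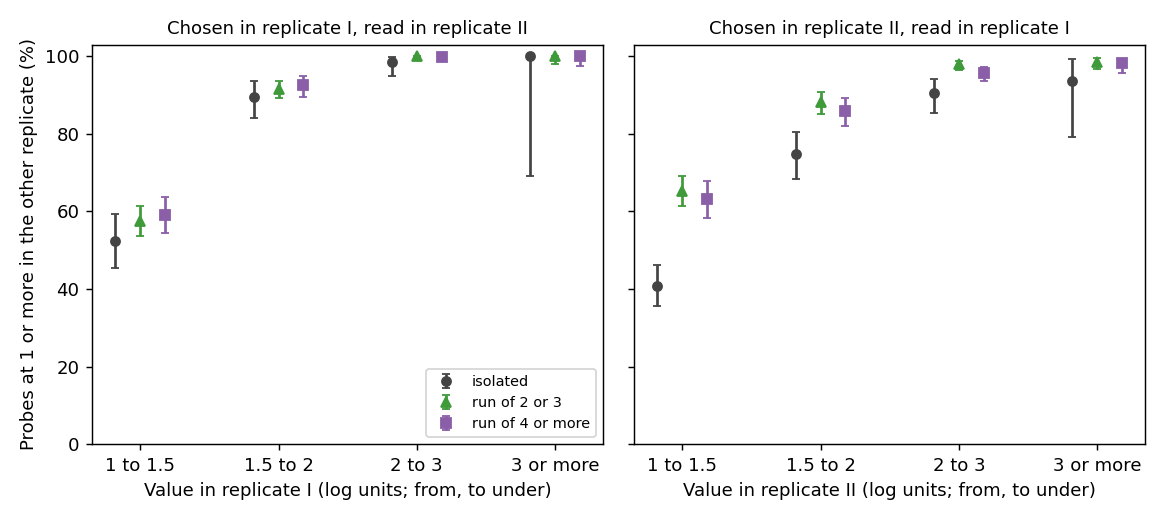
Share of probes at 1 or more in the replicate not used for the choice (vertical axis, percent, with exact 95% intervals) by the value in the replicate used (horizontal axis, log units), for probes isolated (dark circles), in runs of 2 or 3 (green triangles) and in runs of 4 or more (purple squares). Chosen in I at 1 to 1.5, 52.5% of isolated probes returned in II, and chosen in II 40.9% returned in I, below the 65.4% and 63.2% of the runs.

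Probes high in 1 replicate only were counted over all kept plates, members or not. In I only 666 probes reached 1, 14.8% of the 4500 high in I, and in II only 815 did, 17.5% of the 4649 high in II. For those in I the other replicate was mostly just short: its median was 0.74, and it lay at 0.5 or more in 533 (80.03%) and under 0 in 16 (2.40%). For those in II, replicate I had a median of 0.46, lay at 0.5 or more in 385 (47.2%) and under 0 in 178 (21.8%). Of the 815, 276 (33.9%) were isolated in II, and of the 666, 117 (17.6%) were isolated in I. By the mean 358 of the 666 and 518 of the 815 stayed under 1 and could not be members, and 56 and 78 were members.

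The highest values found in 1 replicate only were those of II. TA17C01 had 0.21 in I and 6.30 in II, TB34F08 had 0.95 and 6.21, TB08D12 had 0.75 and 4.03, TB67D05 had -0.36 and 3.98, and TC06A05, the only member among these 5, had 0.90 and 3.95. The probe before TA17C01 was itself high, at 3.48 in I and 7.16 in II. In I only, the 5 highest were TB98C08 and TC02A08, both members, and TA09G08, TC12G10 and TA11E08, all at 1.97 to 2.25 in I and 0.77 to 0.99 in II. A value of 2 or more was reached by 4 probes of the 666 and by 69 of the 815, and 22 of these 69 lay under the median in I.

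In the first plates of set TA the plate medians of the replicates alternated. On the 5 odd plates TA01 to TA09 the median of II exceeded that of I by 0.41 to 0.94 log units, and on the 5 even plates TA02 to TA10 the difference of II minus I was -0.34 to -0.19. Plates TA01 to TA10 held 953 of the kept probes (5.49%), 82 of the 815 probes high in II only (10.1%) and 37 of the 666 high in I only (5.56%). Of those 82, 66 were on the odd plates TA01 to TA09, and of the 37, 31 were on the even plates. Members there numbered 21 on the odd plates and 19 on the even ones, of which 16 and 12 reached 1 in both replicates. Without these 40 members 530 were left, and 77.0% of them reached 1 in both replicates, against 76.5% with them. The part of plate level in these counts was not tested.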

How the data were processed

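The values were log ratios of the 2 dyes of each array, taken as log2 and given in log units, as in the authors' deposited value table. The sources used here do not state normalisation, log base, centring or direction, and signal over background is unknown. The labels give direct Cy3 and Cy5 labelling of amplified DNA. The table has 21800 rows, of which 21691 hold values and 109 do not. Each dye-swap pair repeats 1 set of values on both arrays and counted as 1 replicate (n = 2), which limits precision.

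Values were centred per replicate on the median, and the members were found in Python 3.11.15 with pandas 2.3.3. Probes were neighbours within a set and not across left-out plates. The run finder was tested on simulated data. Intervals are exact Clopper-Pearson (SciPy 1.17.1). The rule used the only values there are, so no test was made. Members and classes were chosen with earlier results of these data known. Probes were named by rule: the 10 highest members, the 5 largest steps, 5 on either side of the limit, the 5 largest replicate differences each way and the 5 highest in 1 replicate only. Any others are said to be named after their values were seen or complete a count. Alternatives changed centring, scale, limit, neighbours and replicates.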

Additional observations from a re-analysis of the deposited data

How the results depend on the processing

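The number of isolated probes stayed between 402 and 777 under 17 of the 18 alternatives and fell to 188 when both neighbours had to be under 0.5. Which probes were isolated changed more than how many: of the 570, 382 were isolated at a limit of 0.8, 463 at 1.2, 346 at 1.5 and 176 at 2, where 515, 672, 777 and 753 were found, and 366 were with centring on the mode, where 515 were found. The median height moved from 1.67 to 1.57 with centring on the mode, 1.62 with plate medians removed, 1.39, 1.85, 2.07 and 2.47 at limits of 0.8, 1.2, 1.5 and 2, and 1.58 with neighbours under 0.5. The median higher neighbour moved from 0.67 to 0.48, 0.84, 1.06 and 1.38 at these limits and to 0.29 with neighbours under 0.5. These shifts follow from the limit. The share high in both replicates moved from 76.5% to 68.0% with centring on the mode, 68.9%, 80.8% and 82.6% at limits of 0.8, 1.2 and 1.5, 68.6% with neighbours under 0.5, 100% with the lower replicate value (by construction) and 82.1% without members whose replicates differed by 1 or more. With 1 replicate left out, the number was 525 to 772, the median height 1.60 to 1.65, the higher neighbour 0.62 to 0.68 and the share 64.2 to 77.7%. The other 50 values stayed within 1.5 times the count, the interval or the replicate SD. Among the named probes 218 of 234 values stayed within the replicate SD, 11 moved and 5 turned negative, all on replicate I alone: TA64E09 (-0.80, against 3.49 on II alone), TA10C03 (-0.26, 3.59), TA77B12 (-0.38, 2.94), TA87D07 (-0.59, 2.62) and TB67D05 (-0.36, 3.98). With 1 replicate left out, the value of a named probe always lies within that SD of its mean. Only a change of sign could be counted there, so those settings do not show stability. The SD is also widest where the replicates differ most. Alternatives that left out members of plates TA01 to TA10, of column 1, of odd rows and columns, or with discordant replicates were chosen after seeing the data. No paired analysis was possible because there is 1 group.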
